A study of Mus musculus with 4 samples.

Results

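The p53 transcription factor, 5 of the genes it activates and 5 inhibitors of cyclin-dependent kinases (CDK) were followed in Lewis lung carcinoma (LLC) tumors expressing or not chemerin. The gene encoding p21, Cdkn1a, is counted in both classes, so that 10 genes were chosen by name, namely Trp53, Mdm2, Cdkn1a, Cdkn1b, Cdkn2a, Cdkn2b, Cdkn2c, Ccng1, Trp53inp1 and Zmat3. All 10 were found among the 47729 genes measured, each under a single identifier, and 8 of the 10 reached the mean of 1 RPM (reads of a gene scaled to a common total of the reads counted on all genes) needed for a test. Cdkn2a and Cdkn2b did not, and their values are given without a test.

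LLC is a mouse lung carcinoma cell line of the C57BL/6 strain. The LLC-Chem group came from cells transfected with a pEFIN plasmid encoding murine chemerin, residues 1 to 157, a secreted ligand of the receptor CMKLR1. The control group (LLC) came from cells labelled wild type, where the study also mentions an empty vector. The cells were grafted under the skin of syngeneic C57BL/6 mice, which the methods give as 6 to 10 weeks old in general, and the tumors were taken on day 5. RNA from 3 tumors was combined in each pool, with 2 pools per group. The study describes clones picked after selection, so that a difference between clones and an effect of chemerin cannot be told apart. The plasmid was given to the tumor cells, while the RNA comes from whole tumors with the blood vessels and leukocytes of the host.

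The p53 protein is a transcription factor that is held at a low level by the ubiquitin ligase Mdm2 and accumulates after DNA damage and other stresses. It then activates genes that stop the cell cycle, repair DNA or kill the cell, among them Cdkn1a and Mdm2 itself. CDK inhibitors fall into 2 families. The CIP/KIP proteins p21 (Cdkn1a), p27 (Cdkn1b) and p57 (Cdkn1c) bind complexes of cyclins with CDKs, while the INK4 proteins (encoded by Cdkn2a, Cdkn2b, Cdkn2c and Cdkn2d) bind CDK4 and CDK6 and keep them from D-type cyclins.

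The depth of the pools, fitted from the spacing of the deposited values, was 28.5 to 34.0 M reads counted on genes, and 3 reads corresponded to 0.0883 to 0.105 RPM. These limits cover counting error only. The transfected gene itself, Rarres2, measured 102 and 98.2 RPM in LLC against 106 and 106 RPM in LLC-Chem pools (log2 fold change, log2FC, 0.08, limma adjusted p = 0.541), so that this gene does not check the labels in either direction. Of the markers of lung epithelium and carcinoma, Krt8 and Krt18 were at 82.8 to 167 RPM and 110.0 to 139 RPM, Nkx2-1 was at 0 RPM in all 4 pools, Epcam at 0.200 RPM or less and Sftpc at 0.0999 RPM or less. Differences were tested with limma on log2(RPM + 0.5) over 13694 genes and called at an adjusted p under 0.05. By this rule 9.54% of the genes tested were higher and 13.5% lower in LLC-Chem tumors. Nothing in the labels says more about how pools were formed, and p-values measure the spread between these pools.

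Among the 10 genes, Cdkn1a, Ccng1 and Trp53inp1 fell to 44.9%, 45.4% and 42.2% of their LLC level in the LLC-Chem pools, and Cdkn1b rose to 158%. The transcript of Trp53 itself (91.4% of the LLC level) and that of Cdkn2c (98.1%) were not called. Thus 3 of the 8 genes tested were lower, against 13.5% of all genes, and 1 was higher, against 9.54%. The same counts, 3 lower and 1 higher, were given by the quasi-likelihood test of edgeR on recovered reads (11.7% and 11.3% of all genes) and by limma blocked on the replicate number (7.77% and 4.01%). With every gene above 0 in some pool tested, 0 of the 10 genes were called by limma in either direction. At an unadjusted p under 0.05, 1 of the 10 was then higher and 5 lower. Over all 26260 genes of that fit, 3394 were higher and 4003 lower at the same threshold. Leaving out any of the 4 pools ended every call by limma, over all genes tested as among the 10. In 6 of the 8 genes both LLC-Chem pools lay below either LLC pool, an order found in 39.3% of all genes tested, and in 1 (Cdkn1b) above, an order found in 33.1%. The median log2FC of the 8 genes was -0.45, that of all genes tested -0.04.

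**Figure D1:**
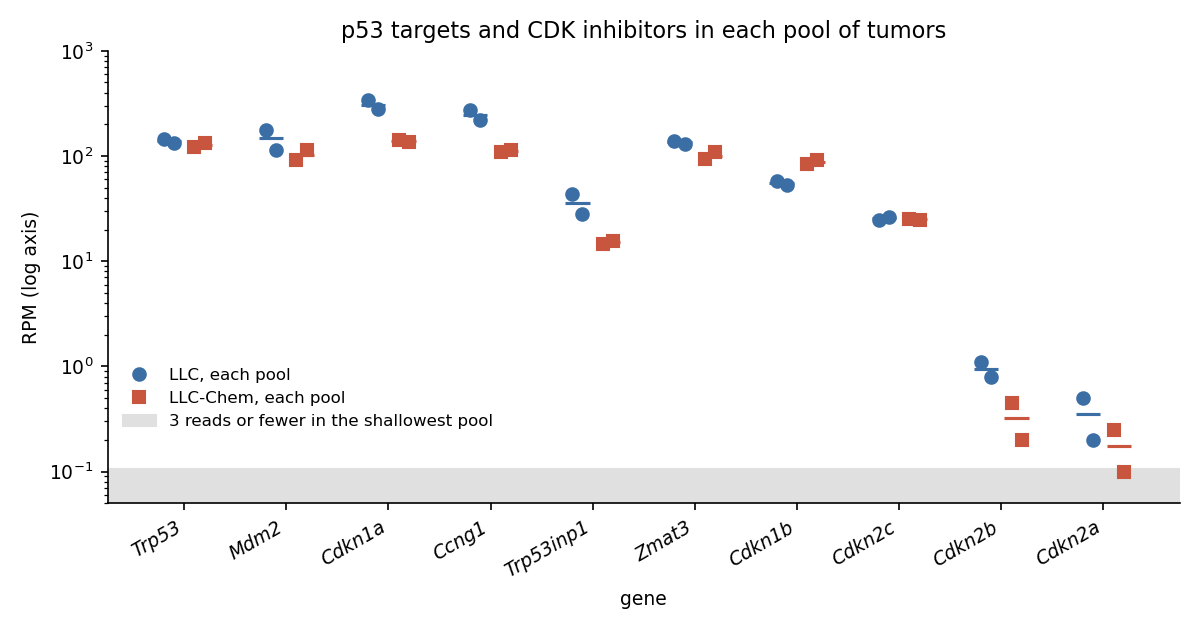
Expression of the 10 genes (RPM, log axis) in each of the 2 LLC pools (circles) and 2 LLC-Chem pools (squares), with horizontal lines at the group means and a grey band for 3 reads or fewer. The LLC-Chem pools of Cdkn1a, Ccng1 and Trp53inp1 lie below both LLC pools, those of Cdkn1b above, and the pools of Cdkn2a and Cdkn2b lie lowest, at 0.0999 to 1.10 RPM.

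Trp53 (GRCm38 chromosome 11, 69580359 to 69591873, plus strand) encodes p53. It measured 145 and 134 RPM in LLC against 122 and 133 RPM in LLC-Chem pools. The highest LLC-Chem pool was just under the lowest LLC pool, and the log2FC of -0.13 (95% confidence interval -0.39 to 0.13, limma adjusted p = 0.385) did not pass the test. The table counts reads per gene and holds no sequence, so that the Trp53 alleles of these cells were not examined. Mdm2, on chromosome 10 from 117688875 to 117710758 on the minus strand, is both the main negative regulator of p53 and a p53 target. Its LLC pools lay apart, at 178 and 115 RPM, and its LLC-Chem pools were at 91.9 and 114 RPM. The lower LLC pool was nearly level with the higher LLC-Chem pool, and the log2FC of -0.48 (95% confidence interval -1.05 to 0.08, limma adjusted p = 0.162) was not called. Leaving out the first LLC pool gave -0.17 and leaving out the second gave -0.80, neither being called (limma adjusted p = 0.484 and 0.0995).

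Cdkn1a, on chromosome 17 from 29090976 to 29100727 on the plus strand, encodes p21, the CDK inhibitor through which p53 arrests the cell cycle. It measured 337 and 279 RPM in LLC against 140.3 and 136 RPM in LLC-Chem pools. Both LLC-Chem pools were close together and well below either LLC pool. The means were 308 ± 41.2 (SD, n = 2) and 138 ± 2.72 RPM (SD, n = 2), a log2FC of -1.15 (SE 0.12, limma adjusted p = 0.0117), and 92.8% of all genes tested had a higher log2FC. On the opposite strand another gene covers 7.68% of the exon bases of Cdkn1a, and reads there cannot be assigned without strand. Ccng1, on chromosome 11 from 40748552 to 40755311 on the minus strand, encodes cyclin G1, a p53 target that takes part in the feedback on p53 through Mdm2. The 2 LLC values were 272 and 219 RPM, those of LLC-Chem 108 and 115 RPM. The groups did not overlap. From 246 ± 37.4 RPM (SD, n = 2) it fell to 112 ± 5.23 RPM (SD, n = 2), a log2FC of -1.13 (SE 0.13, limma adjusted p = 0.0126). When any of the 4 pools was left out, the log2FC ran from -1.28 to -1.01 for Cdkn1a and from -1.28 to -0.97 for Ccng1, but neither gene was called (limma adjusted p = 0.0650 to 0.153 for Cdkn1a and 0.0714 to 0.153 for Ccng1), as was then true of every gene tested.

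For both genes the sequence before an annotated start matched the p53 response element. The element is made of copies of a 10-base p53 decamer, and 300 bases around each start (250 before and 50 after, from RefSeq, GRCm38.p6) were searched for 2 decamers side by side with at most 1 mismatch. The decamer reads the same on both strands, and the allowance of 1 mismatch was set after these promoters had been seen. Only 29 of 32851 promoters (0.0883%) held such an element, and 8.36% held at least 1 exact decamer. Of the 10 genes, 8 had a promoter in the RefSeq table, and the element was found for 2 of these, Cdkn1a and Ccng1. The promoters are shown because their genes were both lower, with the element in capitals. For Cdkn1a it precedes the upstream of 2 annotated starts, at chr17:29090928-29090947, beginning 51 bases before it, and none was found at the downstream start (chr17:29093519-29093818). For Ccng1 it lies at chr11:40755462-40755481, beginning 195 bases before the start.
Cdkn1a upstream promoter, chr17:29090729-29091028, plus strand: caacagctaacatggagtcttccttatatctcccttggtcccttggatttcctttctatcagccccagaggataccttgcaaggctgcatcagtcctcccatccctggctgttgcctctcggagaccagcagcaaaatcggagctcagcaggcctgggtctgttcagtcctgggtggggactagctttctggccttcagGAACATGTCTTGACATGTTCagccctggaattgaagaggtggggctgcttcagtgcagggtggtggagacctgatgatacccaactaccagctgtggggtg
Ccng1 promoter, chr11:40755237-40755536, minus strand: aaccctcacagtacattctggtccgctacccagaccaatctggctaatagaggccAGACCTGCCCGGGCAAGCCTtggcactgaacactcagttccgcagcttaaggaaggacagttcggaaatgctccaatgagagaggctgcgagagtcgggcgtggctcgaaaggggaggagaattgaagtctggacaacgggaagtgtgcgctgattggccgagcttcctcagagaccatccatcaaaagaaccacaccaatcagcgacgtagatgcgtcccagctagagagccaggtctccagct
Exact single decamers were present in the Trp53 and Mdm2 promoters (1 each), and none in the windows of Cdkn1b, Cdkn2a, Cdkn2b and Cdkn2c. Elements outside these windows, or with bases between the 2 decamers, were not searched for in any gene. A match is a match of letters, and binding was not measured.

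Trp53inp1, on chromosome 4 from 11156431 to 11174379 on the plus strand, encodes a p53-induced nuclear protein linked to cell death and autophagy. It measured 43.5 and 28.3 RPM in LLC against 14.6 and 15.7 RPM in LLC-Chem pools. The LLC pools differed from each other more than the LLC-Chem pools, but the groups did not overlap. From 35.9 ± 10.7 RPM (SD, n = 2) it fell to 15.1 ± 0.778 RPM (SD, n = 2), a log2FC of -1.19 (SE 0.22, limma adjusted p = 0.0238), which was the largest fall of the 8 genes tested. The log2FC moved to -0.88 when the first LLC pool was left out and to -1.49 for the second, and leaving out any of the 4 pools ended the call (limma adjusted p = 0.0771 to 0.192). Zmat3, on chromosome 3 from 32334792 to 32366014 on the minus strand, encodes a zinc finger RNA-binding protein induced by p53. It measured 138 and 131 RPM in LLC against 93.9 and 109 RPM in LLC-Chem pools. The groups did not overlap, and the log2FC was -0.41 (95% confidence interval -0.69 to -0.13), yet its limma adjusted p of 0.0505 was just outside the threshold. DESeq2 on the recovered reads placed it inside (adjusted p = 0.0464). The other planned fits of all 4 pools left it outside, from a limma adjusted p of 0.0503 to 0.135. A block that crossed the replicate numbers of the 2 groups, tried once the data had been seen, gave a limma adjusted p of 0.0341. With 1 pool left out the log2FC of Zmat3 ran from -0.52 to -0.31.

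Cdkn1b, on chromosome 6 from 134920401 to 134925513 on the plus strand, encodes p27, which inhibits cyclin E bound to CDK2 and accumulates in quiescent cells. It was the gene of the 10 that rose. The 2 LLC values were 58.2 and 53.4 RPM, those of LLC-Chem 84.2 and 91.8 RPM. Both LLC-Chem pools were above either LLC pool, by more than the pools of a group differed. From 55.8 ± 3.43 RPM (SD, n = 2) it went to 88.0 ± 5.41 RPM (SD, n = 2), a log2FC of 0.65 (SE 0.11, limma adjusted p = 0.0185). Without any of the 4 pools in turn the log2FC ran from 0.59 to 0.72 and the call was lost (limma adjusted p = 0.0834 to 0.194). Cdkn1b belongs to the hypoxia genes that the study listed from these same samples, so its direction is not independent evidence. Per kilobase of exon, the level of Cdkn1b was 0.135 and 0.149 times that of Cdkn1a in the LLC pools and 0.469 and 0.526 times in the LLC-Chem pools. This ratio was chosen after the opposite directions of both genes were seen and restates them, and it was given no test of its own. The third member of the family, Cdkn1c (p57), was weakly expressed at 5.15 and 8.90 RPM in LLC against 3.0 and 2.65 RPM in LLC-Chem pools, and it fell by 1.13 in log2 (limma adjusted p = 0.0448), a call that the quasi-likelihood test of edgeR did not make (adjusted p = 0.0509).

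Of the INK4 genes, Cdkn2c and Cdkn2d were not called, and Cdkn2a and Cdkn2b were on average under 1 RPM. Cdkn2c, on chromosome 4 from 109660876 to 109667189 on the minus strand, encodes p18. It measured 24.8 and 26.2 RPM in LLC against 25.3 and 24.7 RPM in LLC-Chem pools. The groups overlapped, and the log2FC of -0.03 (95% confidence interval -0.32 to 0.27, limma adjusted p = 0.882) turned to 0.02 with TMM scaling. Cdkn2d, which encodes p19 of the INK4 family, was at 33.1 and 29.3 RPM in LLC against 29.2 and 27.2 RPM in LLC-Chem (log2FC -0.14, 95% confidence interval -0.45 to 0.17, limma adjusted p = 0.426). Cdkn2a, on chromosome 4 from 89274471 to 89294653 on the minus strand, encodes both p16 and, in another reading frame, p19Arf, which inhibits Mdm2. Counts per gene cannot separate these products. Cdkn2a was at 0.50 and 0.200 RPM in LLC against 0.250 and 0.0999 RPM in LLC-Chem pools, which corresponds to 15, 5, 8 and 3 reads recovered to within 1 read. The groups overlapped. Its neighbour Cdkn2b, from 89306299 to 89311039 on the same strand, encodes p15, an INK4 protein induced by TGF-beta. It was at 1.10 and 0.800 RPM (33 and 22 reads) in the LLC pools and 0.45 and 0.200 RPM (15 and 6 reads) in the LLC-Chem pools. The groups did not overlap, but the gene was under the limit for testing.

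**Figure D2:**
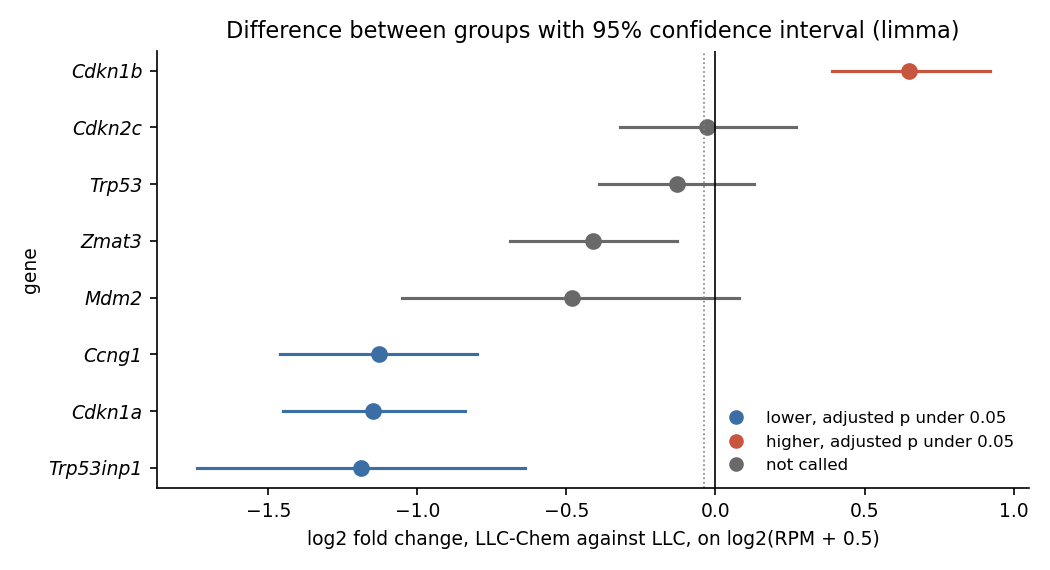
Log2 fold change on log2(RPM + 0.5) of the 8 genes tested, LLC-Chem against LLC, with the 95% confidence interval from limma (bars). The dotted line marks the median of all genes tested (-0.04). The intervals of Trp53inp1, Cdkn1a and Ccng1 lie wholly below 0 and that of Cdkn1b wholly above, while those of Trp53, Mdm2 and Cdkn2c include 0 and that of Zmat3 does not although the gene was not called.

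Levels of different genes were compared per kilobase of exon, on the RPM scale. In the LLC pools Cdkn1a was the most abundant of the 10 genes (94.9 and 78.5 RPM per kilobase), followed by Ccng1 (77.5 and 62.5). Trp53 (36.0 and 33.0) and Mdm2 (35.0 and 22.7) came next and their pools overlapped. Cdkn1b (12.8 and 11.7) and Zmat3 (12.1 and 11.5) also overlapped, ahead of Cdkn2c (9.25 and 9.75) and Trp53inp1 (6.71 and 4.38). In the LLC-Chem pools Cdkn1a was still first, at 39.5 and 38.4 RPM per kilobase, but Ccng1 (30.8 and 32.9) overlapped with Trp53 (30.1 and 32.9), and Cdkn1b (18.5 and 20.2) with Mdm2 (18.1 and 22.3). Zmat3 (8.21 and 9.51) overlapped with Cdkn2c (9.43 and 9.21), followed by Trp53inp1 (2.25 and 2.42). Cdkn2b and Cdkn2a were last in both groups, at means of 0.683 and 0.298 RPM per kilobase in LLC and 0.234 and 0.149 in LLC-Chem tumors. Exon length was the union over all annotated transcripts, which lowers the value of genes with long rarely used exons. In 9 of the 10 genes the first LLC pool was above the second, as in 24 of the 29 further p53 targets tested and in 7930 of all 13694 genes tested. The median difference between these pools was 0.29 on the log2 scale for the 10 genes and 0.05 for all genes tested, and its median size regardless of sign was 0.29 and 0.19.

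Beyond the 10 genes, 30 further p53 targets were examined, of which 29 were tested and Perp, at 0.300 RPM or less in every pool, was not. In LLC-Chem tumors 11 of the 29 were lower, against 13.5% of all genes, and 0 were higher by limma, a count that was also 0 at an unadjusted p under 0.05 and by edgeR and DESeq2. The number lower was 10 by the quasi-likelihood test of edgeR (11.7% of all genes) and 11 by DESeq2 (16.6%). It was 5 by limma without the trend (1271 of 13694 genes) and 5 by limma blocked on the replicate number (7.77%). With every gene above 0 in some pool tested, limma called 0 of all genes lower, and so 0 of the 29. Their median log2FC was -0.33, and in 18 of the 29 both LLC-Chem pools lay below either LLC pool, against 39.3% of all genes. Leaving out any of the 4 pools ended every call by limma, over all genes tested as among the 29. The 29 genes were also grouped by role, after their values were seen. The genes called lower were 5 of 11 for cell death, 3 of 8 for growth control and 2 of 4 for metabolism and stress. For other roles the count was 1 of 2. For DNA repair and nucleotide supply it was 0 of 4 (0 also at an unadjusted p under 0.05 and by edgeR and DESeq2). With 13.5% of all genes called lower, 4 genes are too few to tell this role from the rest.

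Among the cell death genes, Pmaip1, encoding the BH3-only protein Noxa, passed from 23.1 and 16.6 RPM in LLC to 8.65 and 5.95 RPM in LLC-Chem (log2FC -1.39, limma adjusted p = 0.0225). Pidd1, which encodes the scaffold of the PIDDosome, fell by 0.98 in log2 (limma adjusted p = 0.0225) and Dram1, a lysosomal protein that promotes autophagy, by 0.94 (limma adjusted p = 0.0130). The exonuclease gene Aen fell by 0.66 (limma adjusted p = 0.0315). Bax, a pore-forming protein of the mitochondrial outer membrane, passed from 132 and 111 RPM in LLC to 87.4 and 82.6 RPM in LLC-Chem (log2FC -0.51, limma adjusted p = 0.0362), and shares 12.2% of its exon bases with another gene. These 5 genes kept 36.7% (Pmaip1) to 69.8% (Bax) of their LLC level, and the remaining 6 tested had log2FC values between -0.43 (Eda2r) and 0.05 (Fas). Bbc3, which encodes the BH3-only protein Puma, was at 13.7 and 14.0 RPM in LLC against 11.3 and 10.5 RPM in LLC-Chem without being called (limma adjusted p = 0.145).

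Among growth control genes, Btg2, an antiproliferative transcription cofactor, passed from 42.1 and 31.7 RPM in LLC to 12.6 and 16.2 RPM in LLC-Chem (log2FC -1.32, limma adjusted p = 0.0163). Phlda3, which opposes the kinase Akt at the membrane, passed from 128 and 105 RPM in LLC to 57.6 and 50.7 RPM in LLC-Chem (log2FC -1.10, limma adjusted p = 0.0130). Psrc1, a microtubule-associated protein, fell by 0.67 (limma adjusted p = 0.0477), a call not made by the quasi-likelihood test of edgeR (adjusted p = 0.0501). Gdf15, a secreted TGF-beta family cytokine, had the lowest log2FC of the list, -1.40, but its LLC pools lay at 5.30 and 2.85 RPM and its LLC-Chem pools at 2.05 and 0.60 RPM, and it was not called by limma (adjusted p = 0.0864), while the likelihood ratio test of edgeR called it lower (adjusted p = 0.0490). Gadd45a, which overlapped between the groups, had a log2FC of 0.30 (limma adjusted p = 0.396). In metabolism, Sesn2, a stress-induced inhibitor of mTORC1 signalling, fell by 0.57 and Ephx1, a microsomal epoxide hydrolase, by 0.70 (limma adjusted p = 0.0359 and 0.0333), while Sesn1 was at 0.03 (limma adjusted p = 0.904). The DNA repair genes Ddb2, Xpc, Polk and Rrm2b had log2FC values of -0.04 to 0.37. Rps27l, a ribosomal protein gene induced by p53, fell by 0.65 (limma adjusted p = 0.0364), and 11.2% of its 50-base words occur in other genes. Of the 23 further targets with a promoter in the RefSeq table, which does not hold Pmaip1 among others, 1 held the element described above. This was Rps27l, and its site is shown for comparison with the sites of Cdkn1a and Ccng1. The site lies at chr9:66946296-66946315 on the plus strand, beginning 117 bases before the second of 2 annotated starts.
Cdkn1a site: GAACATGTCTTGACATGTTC
Ccng1 site: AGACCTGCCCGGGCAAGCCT
Rps27l site: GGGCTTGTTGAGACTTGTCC

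**Figure D3:**
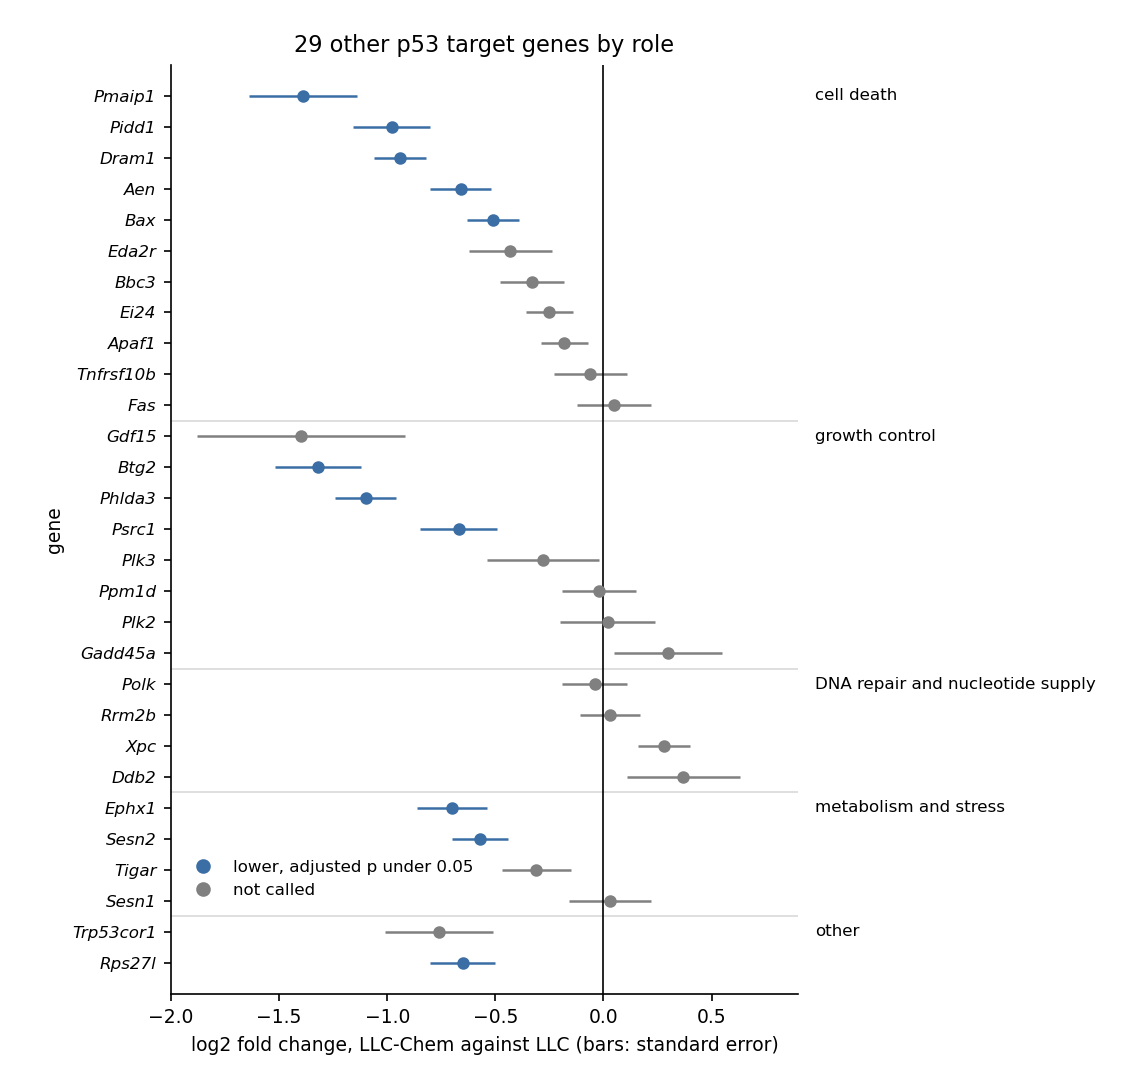
Log2 fold change (points) and SE (bars) of the 29 further p53 targets tested, LLC-Chem against LLC, ordered by role. The 11 genes called lower run from -1.39 (Pmaip1) to -0.51 (Bax), and the 4 genes of DNA repair and nucleotide supply lie between -0.04 and 0.37.

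Of 10 regulators and relatives of p53 tested, 1 was higher and 1 lower, shares near those over all genes (9.54% and 13.5%). Trp63 and Trp73, the relatives of p53, were at 0.250 RPM or less and were not tested, and Cop1 was not matched by symbol. Trp53bp1, a DNA damage adaptor, rose by 0.54 in log2 (limma adjusted p = 0.0340) and the checkpoint kinase gene Chek2 fell by 0.70 (limma adjusted p = 0.0354). Mdm4, a partner of Mdm2 that blocks p53 activity, was at 123 and 100.4 RPM in LLC against 143 and 193 RPM in LLC-Chem pools. The pools did not overlap, but it was not called by limma (log2FC 0.57, adjusted p = 0.0712), while the likelihood ratio test of edgeR and DESeq2 called it higher (adjusted p = 0.0150 and 0.0138). Of 8 genes for the turnover and transcription of p27, 0 were called by limma, where 1 was higher and 1 lower at an unadjusted p under 0.05, and edgeR and DESeq2 each called 1 higher. Skp2, the ubiquitin ligase subunit that marks p27 for degradation, had a log2FC of 0.05 (limma adjusted p = 0.852).

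The cyclins and kinases that CDK inhibitors act on were examined beside them. Of 14 genes for G1 cyclins, CDKs and pocket proteins, 4 were lower, against 13.5% of all genes, and 0 higher by limma (0 also at an unadjusted p under 0.05 and by edgeR and DESeq2). Ccnd1, which encodes cyclin D1, the partner of CDK4 and CDK6, passed from 205 and 156 RPM in LLC to 89.5 and 82.6 RPM in LLC-Chem (log2FC -1.05, limma adjusted p = 0.0150). Ccne1 (cyclin E1) fell by 0.97, the transcription factor gene E2f2 by 0.91 and Ccnd2 (cyclin D2) by 0.52 (limma adjusted p = 0.0209, 0.0351 and 0.0323). Cdk4, Cdk6 and Cdk2 had log2FC values of -0.12, 0.09 and 0.27 and were not called (limma adjusted p = 0.407, 0.662 and 0.133). Of 12 proliferation markers, 11 were lower and 0 higher by limma (0 also at an unadjusted p under 0.05 and by edgeR and DESeq2), with a median log2FC of -0.81. The 8 with the largest change were Aurka, Plk1, Ccnb1, Birc5, Cdk1, Bub1, Ccna2 and Mki67, with log2FC values from -1.17 to -0.72. Mki67, the gene of the Ki-67 antigen, passed from 224 and 209.8 RPM in LLC to 142 and 122 RPM in LLC-Chem (log2FC -0.72, limma adjusted p = 0.0179). Cdkn1a and Ccnd1 were thus lower together with proliferation markers, and Cdkn1b was higher. Leaving out any of the 4 pools ended all these calls.

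Markers of host cells moved with the same contrast. The share over all genes tested was 13.5% lower and 9.54% higher. Of 15 leukocyte markers tested, 11 were lower, with a summed level over the whole list of 1384 and 1636 RPM in LLC against 828 and 453 RPM in LLC-Chem pools, and none of its 21 genes was at 0 in all pools. Of 7 endothelial markers 6 were lower (sum 253 and 206 RPM in LLC against 68.7 and 39.7), and of 5 mural cell markers all 5 (sum 225 and 188 RPM in LLC against 63.7 and 42.0). Fibroblast markers were mixed, with 1 higher and 2 lower of 5 (sum 11799.6 and 20339 RPM in LLC against 8559 and 6869). Of the 3 lung epithelial and carcinoma markers tested, 0 were called by limma (2 were lower at an unadjusted p under 0.05 and by DESeq2). In whole tumors fewer cells of a type and less RNA per cell cannot be told apart, and the part of these markers in the values of the p53 targets and CDK inhibitors was not tested.

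**Figure D4:**
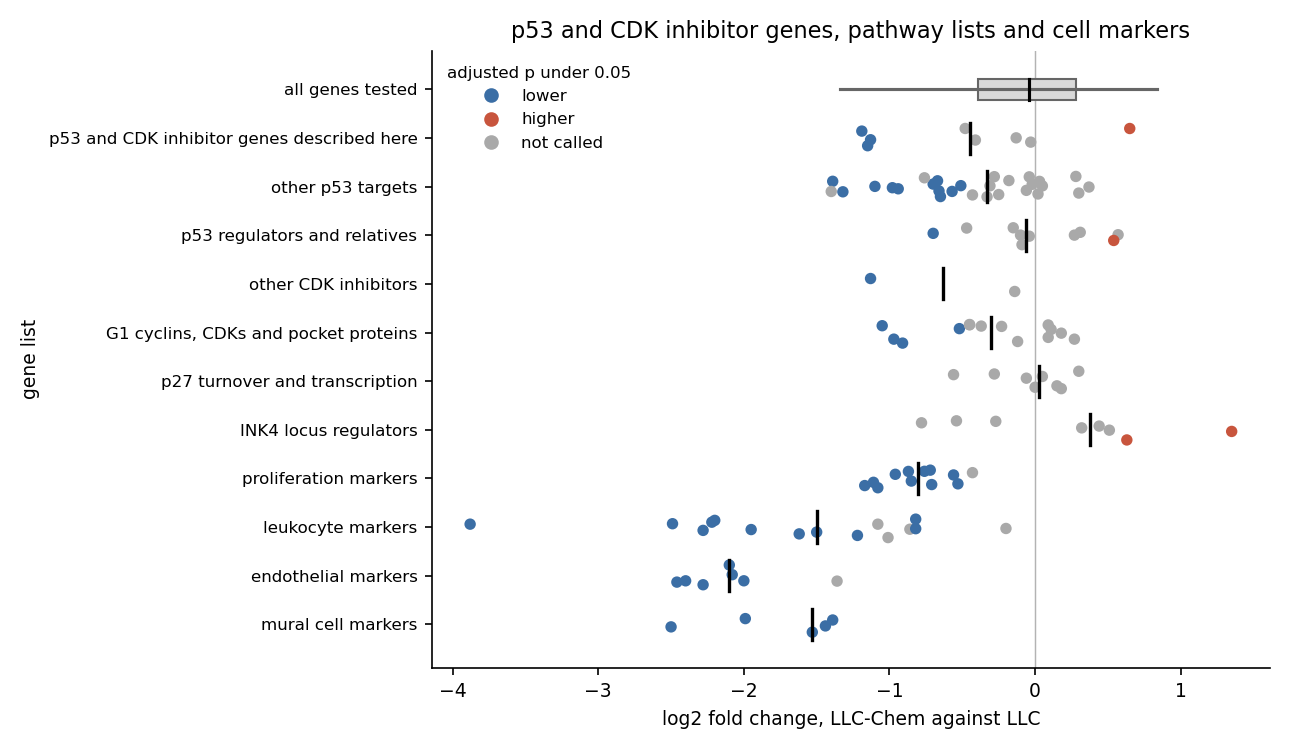
Log2 fold change, LLC-Chem against LLC, of each tested gene in the 10-gene set, the pathway lists and the marker lists of proliferation, leukocytes, endothelium and mural cells (points), with the median of each list as a vertical line. For all genes tested the box spans the middle 50% and the whiskers the 5th to 95th percentile. The medians of further p53 targets (-0.33) and of the genes described here (-0.45) lie below that of all genes (-0.04) and above those of the proliferation (-0.81) and endothelial markers (-2.10).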

How the data were processed

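The authors prepared libraries with a TruSeq RNA kit, aligned the read pairs on GRCm38 by STAR, summarised them on Ensembl 84 genes by HTSeq and deposited RPM per gene and pool, as the methods and the submitters' processing notes give it. Tool versions and the strand setting are not given in the sources used here. The deposited RPM are whole steps that fit reads scaled to a common total and rounded up, from which library totals and reads (to within 1 read) were recovered. All nonzero values (100.0%) were whole within 0.0002 RPM plus a relative 1e-05.

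The main test was limma 3.58.1 under R 4.3.3 (eBayes with trend, two-sided) on log2(RPM + 0.5), which understates changes of low genes, over the 13694 genes averaging 1 RPM or more, with Benjamini-Hochberg adjustment. RPM are not counts, so edgeR 4.0.16 and DESeq2 1.42.0 were run on recovered reads beside it. The fits and the recovery of reads were tested on simulated data. Pools of a group differed by more than counting error (chi-square per gene 65.9 in LLC, 26.9 in LLC-Chem). log2FC stands for the log2 fold change of LLC-Chem against LLC, SE for its standard error.

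The genes and lists were chosen with earlier results of these data known. Named are the 10 genes, Rarres2, marker genes, neighbours of genes near the detection limit, and from each pathway list the called genes (the 8 largest changes where more were called) and those under the limit. Rps27l, Sesn2 and Bax, called but beyond the 8 largest, and other list genes named for their role (among them Fas, Eda2r, Bbc3, Gdf15, Gadd45a, Sesn1, Mdm4, Skp2, Cdk2, Cdk4, Cdk6, Cdkn2d, Bmi1 and the DNA repair genes) were chosen after their values were seen. Of the keratinocyte, muscle, adipocyte and erythroid lists only 1, 1, 3 and 4 genes were tested. Limma called 0, 1, 1 and 0 of them higher and 0 lower, against 9.54% and 13.5% of all genes. The summed level of the erythroid list was 113 and 45.1 RPM in LLC against 141 and 4.05 RPM in LLC-Chem pools. Coordinates are from GENCODE M21 on GRCm38 (98.9% of identifiers), promoters from RefSeq on GRCm38.p6. Figures were made with Python 3.11.15 and matplotlib 3.10.9.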

Additional observations from a re-analysis of the deposited data

How the results depend on the processing

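Of the 10 genes, 3 lower and 1 higher were called under TMM and median-of-ratios scaling, pseudocounts of 0.1 and 1, a filter of 5 RPM, limma without a trend, both edgeR tests and the replicate block, and 4 lower by DESeq2. With every gene above 0 in some pool tested, 0 of the 10 genes were higher and 0 lower by limma (1 and 5 at an unadjusted p under 0.05), 0 further p53 targets were lower, and over all genes 1 was higher and 0 lower (3394 and 4003 at an unadjusted p under 0.05). With any pool left out, limma on 3 pools called 0 genes in either direction, where 998 to 2359 genes were higher and 1580 to 2823 lower at an unadjusted p under 0.05, with 1 of the 10 genes higher and 3 to 5 lower. The lone pool of a group is then assumed to vary like the other group. The pools share only a number, and deviations of same-numbered pools correlated at -0.14 across genes. With the replicate block 549 genes were higher, 1064 lower and 5 further p53 targets lower, a number also found without a trend. The block changed no call among the 10 genes. A crossed pairing, tried once the data had been seen, called 5 of the 10 genes lower. The likelihood ratio test of edgeR gave 2006 genes higher. The log2FC of Cdkn2c, never called, was 0.02 with TMM scaling and both edgeR tests, 0.01 with median-of-ratios scaling and DESeq2, and -0.06 to 0.01 without 1 pool. Cdkn2a, with 3 to 15 reads per pool, and Cdkn2b, with 6 to 33, were both left out by the limit of 1 RPM. Their log2FC values were -0.68 and -1.36 with a pseudocount of 0.1 and -0.32 and -0.82 with 0.5. The causes of these shifts were not tested.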

Other observations

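Genes known to act on the Cdkn2a locus were measured beside Cdkn2a and Cdkn2b. Of 8 such regulators, 2 were higher, against 9.54% of all genes tested, and 0 lower, against 13.5%, by limma (5 higher and 2 lower at an unadjusted p under 0.05, 2 and 0 by edgeR's quasi-likelihood test, and 4 and 1 by its likelihood ratio test and by DESeq2). Cbx7, a chromodomain subunit of Polycomb repressive complex 1 that silences Cdkn2a, had a log2FC of 1.35 (SE 0.12, limma adjusted p = 0.00930). It measured 20.5 and 22 RPM in LLC against 51.4 and 58.4 RPM in LLC-Chem pools, so that the groups stood far apart. Rnf2, the ubiquitin ligase subunit of the same complex, passed from 78.0 and 64.2 RPM in LLC to 105 and 114 RPM in LLC-Chem (log2FC 0.63, limma adjusted p = 0.0283). Bmi1, another subunit, was at 94.5 and 66.7 RPM in LLC against 111 and 117 RPM in LLC-Chem without being called by limma (adjusted p = 0.0856), while the likelihood ratio test of edgeR and DESeq2 called it higher (adjusted p = 0.0228 and 0.0303). The calls of Cbx7 and Rnf2 were lost when any pool was left out.

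Mtap, the protein-coding gene next to Cdkn2a on chromosome 4 (89137122 to 89181081), which encodes an enzyme of methionine salvage, was measured at 120.2 and 98.1 RPM in LLC against 111 and 117 RPM in LLC-Chem pools. On the other side of Cdkn2b, Dmrta1 was at 0.200 RPM or less in every pool.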
